A study of Mus musculus with 4 samples.

Results

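The genes described here are the ligands and receptors of the tumour necrosis factor (TNF) superfamily, without TACI itself and the other receptors and ligands of the BAFF and APRIL system. They were taken by symbol from the array annotation: symbols beginning Tnfrsf or Tnfsf, and the members that carry other names (Tnf, Lta, Ltb, Ltbr, Fas, Fasl, Cd27, Cd70, Cd40, Cd40lg, Eda, Edar, Eda2r, Ngfr and Relt). This gave 40 of the 22180 genes that had a probe set with 1 symbol, 15 ligands and 25 receptors, each with 1 such probe set. The cells were naive CD4+ T cells of C57BL/6 mice with the genotype TACI-/-, and they were set against the same cells of C57BL/6 wild-type (WT) mice. The cells had been sorted as CD62L high, CD44 low and CD25 negative from pooled spleens and lymph nodes, with no stimulus named, and each genotype had 2 Affymetrix Mouse Gene 2.0 ST arrays that the titles call biological replicates. The age of the mice, the allele, how many mice a pool held and whether the pools came from separate mice are not stated in the sources used here, so p-values measure only the spread between these arrays.

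TNF superfamily ligands are mostly trimeric proteins on the cell surface, which bind receptors with cysteine-rich domains on neighbouring cells and can be cut off in soluble form. A group of receptors (Fas, the TNF receptor Tnfrsf1a, the TRAIL receptor Tnfrsf10b) carries a death domain and can start apoptosis. Another group (Cd27, OX40, GITR and their relatives) binds TRAF adaptors, activates NF-kB and gives T cells costimulatory signals. Naive T cells carry Cd27 before they meet antigen, while many of the other costimulatory receptors and the ligands appear after stimulation, and regulatory T cells carry OX40 and GITR constitutively. TACI, which the mice lack, is a receptor of the same superfamily.

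The values are log2 signals per probe set, and levels of different genes are not set against each other, since probe sets differ in their response. The test took in genes that reached the filter on 2 or more arrays; the filter was each array's 40th percentile, 3.74 to 3.77 log2 units. The number of arrays, 2 per genotype, limits the precision. Tnfrsf13b, which encodes TACI, measured 2.73 and 3.09 on the TACI-/- arrays, against 2.95 and 3.02 on the WT arrays, below the filter on all 4 arrays, so it does not check the genotype labels. Cd4 measured 10.57 and 10.45 on the TACI-/- arrays, against 10.64 and 10.46 on the WT arrays. Cd8a was below the filter on all 4 arrays, as were the B cell gene Ms4a1 and the myeloid genes Cd14 and S100a8. Other genes of these cell types were above the filter on all 4 arrays, among them Cd79a and Bank1 of B cells and Lyz2 and Itgam of myeloid cells. Cd8b1 was above the filter on all 4 arrays, with 6.11 and 5.73 on the TACI-/- arrays, against 6.55 and 6.59 on the WT arrays. A lower bulk signal can come from fewer cells of a type or less RNA per cell, which cannot be told apart here.

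Of the 40 members, 30 were at or above the filter on all 4 arrays and were tested, so none of the 30 entered through the higher genotype alone. The other 10 were not tested. Of these, 7 were below the filter on every array (Cd70, Eda, Eda2r, Tnfrsf11b, Tnfsf4, Tnfsf14 and Tnfsf18) and 3 were above it on 1 array (Edar, Tnfrsf11a and Tnfsf15), with values between 1.89 and 3.87 log2 units. The untested genes thus include the ligands of Cd27 (Cd70), of OX40 (Tnfsf4) and of GITR (Tnfsf18), and the receptor of RANKL (Tnfrsf11a), a gene of osteoclasts and dendritic cells. Tnfsf14, which encodes the T cell ligand LIGHT, had 3.30 and 3.52 on the TACI-/- arrays, against 3.40 and 3.44 on the WT arrays, values too low to show a difference.

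No member passed the threshold of an adjusted p under 0.05 over all genes (limma, Benjamini-Hochberg), 0 of 30, where 0.138% of the 13782 genes tested did. At an unadjusted limma p under 0.05 there were 11 of 30 members, 36.7%, against 8.78% of all genes tested. Higher in TACI-/- cells were 9 members (Fasl, Tnfrsf23, Tnfrsf9, Tnfrsf10b, Tnfrsf8, Tnf, Tnfsf11, Tnfrsf18 and Tnfrsf4), where 4.94% of all genes were. Lower were Tnfsf8 and Tnfrsf22, where 3.84% of all genes were. The median log2 fold change of the 30 members was 0.02, beside 0.01 over all genes tested, and 16 members had a positive and 14 a negative value, where 51.8% and 48.2% of all genes did. The count of 11 depended on single arrays. It was 6 (8.31% of all genes) when TACI-/- replicate 2 was left out and 10 (7.66%) when TACI-/- replicate 1 was. Omitting WT replicate 1 or WT replicate 2 gave 8 in each case, beside 5.23% and 7.65% of all genes. With no moderation of the variance it was 5, 4 higher and 1 lower, where 7.15% of all genes were under 0.05. Those 5 were Fasl, Tnfrsf9, Tnfrsf10b and Tnfsf8 of the 11, and Tnfsf10, which was not among them. Fasl, Tnfrsf9, Tnfrsf10b and Tnfrsf23 stayed under an unadjusted p of 0.05 whichever array was left out, and each of the other 7 did so in 2 of the 4 fits. In such a fit 1 genotype has a single array, which is assumed to vary like the arrays of the other genotype. Tnfrsf23 was over 0.05 with no moderation of the variance. Tnfrsf4, Tnfrsf8, Tnfrsf18, Tnfrsf22 and Tnfsf8 were over 0.05 without TACI-/- replicate 2, Tnf and Tnfsf11 without TACI-/- replicate 1. Tnfrsf4, Tnfrsf22 and Tnfsf11 were over it without WT replicate 1, and Tnf, Tnfrsf8, Tnfrsf18 and Tnfsf8 without WT replicate 2.

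**Figure D1:**
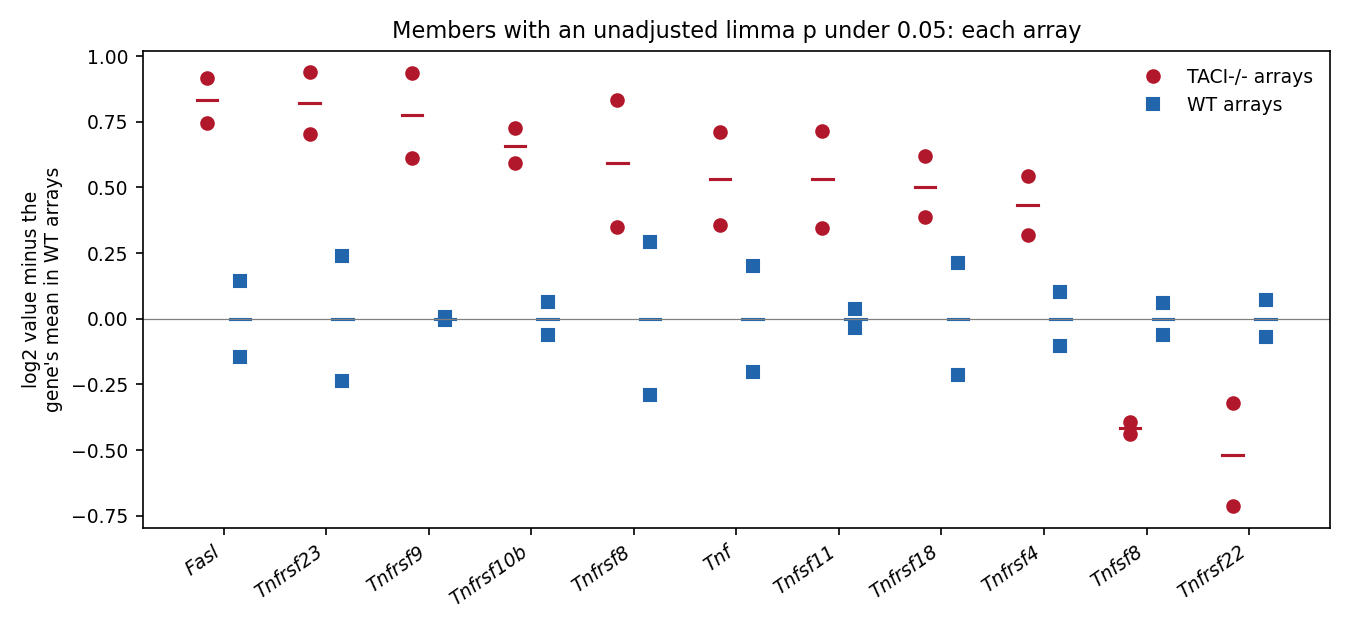
Each array of the 11 members with an unadjusted limma p under 0.05, as the log2 value minus that gene's mean in WT arrays (vertical axis), with circles for TACI-/- arrays, squares for WT arrays and short bars for the means of 2 arrays. The arrays of the genotypes do not overlap for any of the 11, and the narrowest gap is that of Tnfrsf8, 0.06 log2 units.

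Promoter sequence of 3 of the 9 genes with higher values is shown here, because Fasl and Tnfrsf9 had the lowest p of the members and Tnf names the family. The sequences are the 250 bases before the annotated start in RefSeq (GRCm38.p6), 5′ to 3′ on the strand of the gene, and Tnfrsf9 has 2 annotated starts. Capitals mark matches, on either strand, to 5 patterns of factors known from stimulated lymphocytes: GGG and TTCC with any 3 bases between them for NF-kB, TGANTCA for AP-1, TGGAAA for NFAT, AAAGGTCA for the Nr4a receptors and GCGNGGGCG for the Egr factors.
Fasl (chr1:161788496-161788745, minus strand): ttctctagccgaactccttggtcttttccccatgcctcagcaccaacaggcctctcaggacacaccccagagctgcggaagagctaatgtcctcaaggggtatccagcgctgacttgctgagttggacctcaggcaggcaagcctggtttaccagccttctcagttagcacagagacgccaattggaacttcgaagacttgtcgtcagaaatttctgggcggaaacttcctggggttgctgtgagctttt
Tnfrsf9, upstream start (chr4:150919905-150920154, plus strand): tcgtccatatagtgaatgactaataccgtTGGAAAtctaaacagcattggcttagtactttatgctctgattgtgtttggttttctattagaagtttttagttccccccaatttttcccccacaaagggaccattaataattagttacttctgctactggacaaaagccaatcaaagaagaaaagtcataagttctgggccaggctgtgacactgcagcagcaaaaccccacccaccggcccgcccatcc
Tnfrsf9, downstream start (chr4:150927749-150927998, plus strand): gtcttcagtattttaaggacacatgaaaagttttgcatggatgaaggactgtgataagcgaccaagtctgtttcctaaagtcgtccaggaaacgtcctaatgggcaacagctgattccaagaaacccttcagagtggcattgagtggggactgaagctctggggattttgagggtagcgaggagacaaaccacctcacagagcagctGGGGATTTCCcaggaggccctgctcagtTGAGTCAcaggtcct
Tnf (chr17:35202008-35202257, minus strand): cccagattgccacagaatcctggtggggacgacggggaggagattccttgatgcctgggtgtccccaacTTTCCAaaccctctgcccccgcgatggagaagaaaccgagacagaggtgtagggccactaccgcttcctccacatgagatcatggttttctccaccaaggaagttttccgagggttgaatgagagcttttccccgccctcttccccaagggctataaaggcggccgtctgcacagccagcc
The downstream start of Tnfrsf9 had an NF-kB match (GGGGATTTCC, bases -43 to -34) and an AP-1 match (TGAGTCA, bases -15 to -9), counted from the start, and its upstream start had an NFAT match. Tnf had 1 NFAT match on the opposite strand, and the window of Fasl held no match to the 5 patterns. The matches marked in these windows do not overlap each other. Of 32851 such windows in the table, 4.65% held the NF-kB pattern, 6.75% the AP-1 pattern, 18.6% the NFAT pattern, 1.34% the Nr4a pattern and 4.7% the Egr pattern. The table held 31 of the 40 members. Among the 10 windows of the 9 members with an unadjusted p under 0.05 that it held, 1 had the NF-kB, 2 the AP-1, 3 the NFAT and 0 the Nr4a or Egr pattern. The 17 windows of other tested members held them in 2, 1, 2, 0 and 1 cases. A match describes letters and is not a measured binding site.

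Of the 9 tested ligands, Fasl had the largest difference. Fasl encodes Fas ligand, which effector T cells and NK cells use to kill cells that carry Fas. It measured 6.41 and 6.24 log2 units on the TACI-/- arrays, against 5.35 and 5.64 on the WT arrays. Both TACI-/- arrays lay above both WT arrays, and the 1.78-fold higher mean (log2 fold change 0.83 ± 0.16, SE) had an unadjusted p of 0.00137 and an adjusted p of 0.221 in limma. Its receptor Fas measured 6.24 and 6.04 on the TACI-/- arrays, against 6.39 and 6.35 on the WT arrays, a log2 fold change of -0.23 with a 95% interval from -0.56 to 0.10. Markers of CD8 T and NK cells, which also express Fasl, were measured beside it. Of 9 such genes 4 were tested, and none was higher at an unadjusted p under 0.05, where 4.94% of all genes tested were. Klrd1 and Cd8b1 were lower at that threshold, where 3.84% of all genes were, with log2 fold changes of -0.87 and -0.65. The other 2, the cytotoxic genes Nkg7 and Prf1, had 0.17 and 0.08. Cd8a, Klrb1c, Gzma and Gzmb were below the filter on every array. The linear signals of all 9 summed to 314.1 and 301.8 on the TACI-/- arrays, against 339.3 and 371.2 on the WT arrays. The part of these cells in the Fasl values was not tested.

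Tnf, the cytokine that names the family, measured 7.90 and 7.54 on the TACI-/- arrays, against 7.39 and 6.99 on the WT arrays. The arrays did not overlap, but the gap of 0.16 log2 units was smaller than the distance between replicates in either genotype, and the log2 fold change was 0.53 ± 0.19 (SE, limma adjusted p = 0.54). Lta and Ltb, the lymphotoxin genes that flank Tnf on chromosome 17 with no protein-coding gene between them, form the trimers that Ltbr binds. Lta measured 4.95 and 5.13 on the TACI-/- arrays, against 4.84 and 4.77 on the WT arrays, with a log2 fold change of 0.24 and a 95% interval from -0.10 to 0.57. Ltb measured 9.48 and 9.19 on the TACI-/- arrays, against 9.50 and 9.25 on the WT arrays, a log2 fold change of -0.04 with an interval from -0.43 to 0.35. The intervals of Tnf and its neighbours overlap, and a difference between them was not tested. The 2 TNF receptor genes had log2 fold changes of 0.02 each. Tnfrsf1a, the widely expressed receptor with a death domain, measured 6.79 and 6.59 on the TACI-/- arrays, against 6.78 and 6.56 on the WT arrays. Tnfrsf1b, the receptor of lymphocytes without a death domain, was at 6.34 on both TACI-/- arrays and at 6.39 and 6.25 in WT cells. Its interval, from -0.30 to 0.33, overlaps that of Tnf, from 0.07 to 1.00, and a difference between the genes was not tested.

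Tnfsf11 encodes RANKL, which drives osteoclast and lymph node development and is made by stimulated T cells. It measured 4.54 and 4.17 on the TACI-/- arrays, against 3.79 and 3.86 on the WT arrays, close to the filter in WT (log2 fold change 0.53 ± 0.16, SE, limma adjusted p = 0.464). Tnfsf10, the gene of the death ligand TRAIL, measured 5.99 and 6.02 on the TACI-/- arrays, against 5.83 and 5.74 on the WT arrays. Its log2 fold change of 0.21 had a 95% interval from -0.10 to 0.52.

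The 3 tested costimulatory ligands had negative log2 fold changes. Those of Cd40lg and Tnfsf9, -0.04 and -0.02, were near 0, with SEs of 0.16 and 0.15. Tnfsf8, which encodes CD30 ligand, measured 7.10 and 7.05 on the TACI-/- arrays, against 7.43 and 7.55 on the WT arrays, and had the largest distance from 0 of the 3, -0.41 ± 0.13 (SE, limma adjusted p = 0.479). All 4 arrays were close to their genotype's mean, with SDs of 0.03 in TACI-/- and 0.09 in WT cells (n = 2 each). Cd40lg, the X-linked gene of CD40 ligand through which helper T cells signal to B cells, measured 8.91 and 8.61 on the TACI-/- arrays, against 8.90 and 8.71 on the WT arrays. Its log2 fold change was -0.04, with a 95% interval from -0.42 to 0.34. Tnfsf9, the ligand of 4-1BB, was near the filter at 3.95 and 3.78 on the TACI-/- arrays, against 3.79 and 3.99 on the WT arrays, and the genotypes overlapped for both genes.

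The 8 costimulatory receptors were all tested, and 4 of them had higher values in TACI-/- cells at an unadjusted p under 0.05, where 4.94% of all genes did. Of these 4, Tnfrsf9 stayed under 0.05 in every fit without 1 array, and Tnfrsf4, Tnfrsf8 and Tnfrsf18 in 2 of the 4 such fits. Tnfrsf9 encodes 4-1BB, which marks recently stimulated T cells. It measured 6.18 and 5.86 on the TACI-/- arrays, against 5.25 and 5.24 on the WT arrays, 1.71-fold higher on average (log2 fold change 0.77 ± 0.15, SE, limma adjusted p = 0.256). Tnfrsf18, which encodes GITR, measured 6.76 and 6.99 on the TACI-/- arrays, against 6.58 and 6.16 on the WT arrays. Tnfrsf4, which encodes OX40, measured 6.21 and 6.43 on the TACI-/- arrays, against 5.79 and 5.99 on the WT arrays. These 2 genes are neighbours on chromosome 4 with no protein-coding gene between them, and their log2 fold changes were 0.50 ± 0.18 and 0.43 ± 0.15 (SE, limma adjusted p = 0.54 and 0.515). For both, the TACI-/- arrays lay above the WT arrays, with gaps of 0.18 and 0.22 log2 units. The gap of Tnfrsf18 was smaller than the distance between replicates in either genotype, and that of Tnfrsf4 was about equal to it. Tnfrsf8, which encodes CD30, measured 4.55 and 5.03 on the TACI-/- arrays, against 4.49 and 3.91 on the WT arrays. Its log2 fold change of 0.59 ± 0.24 had the largest SE of the 30 members and an unadjusted p of 0.0476, and the p was over 0.05 with no filter on low values, with the replicate number as a block and with a further quantile normalization.

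The other 4 costimulatory receptors had log2 fold changes near 0 or below it. Cd27, a receptor of naive and memory T cells, measured 9.49 and 9.34 on the TACI-/- arrays, against 9.64 and 9.59 on the WT arrays, a log2 fold change of -0.19 (95% interval from -0.51 to 0.13). Tnfrsf14 encodes HVEM, the receptor of LIGHT and BTLA, and measured 6.79 and 6.58 on the TACI-/- arrays, against 6.72 and 6.77 on the WT arrays, a log2 fold change of -0.06. Cd40, a gene of B cells and other antigen-presenting cells, was close to the filter at 3.93 and 4.19 on the TACI-/- arrays, against 4.04 and 3.96 on the WT arrays. The 95% intervals of Cd40, Tnfrsf1b and Tnfrsf14 lay between -0.40 and 0.41 log2 units. The median over the 8 was 0.24, beside 0.01 over all genes tested.

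Genes of regulatory T cells and of stimulated T cells had higher values on the same arrays. The marker lists were chosen with earlier results of these data known. Of 7 tested regulatory T cell markers, 3 were higher in TACI-/- cells at an unadjusted p under 0.05 and none was lower. At that threshold 4.94% of all genes tested were higher and 3.84% lower. The median log2 fold change of the 7 was 0.29. Ctla4 passed the adjusted threshold with 1.57, while Ikzf2 had 0.94 and Foxp3 0.58. Izumo1r and Ikzf4 had 0.03 and -0.04, Il2ra 0.29, and Il10 was below the filter on every array. The linear signals of the 8 listed genes summed to 411.9 and 378.4 on the TACI-/- arrays, against 306.5 and 292.1 on the WT arrays. Of 10 activation markers 8 were higher and none lower at an unadjusted p under 0.05, and Nr4a2, Nr4a3 and Irf4 rose past the adjusted threshold. Cd69 had a log2 fold change of 0.82, Cd44 0.19 and Myc -0.20, and the 10 genes summed to 2345 and 2107 on the TACI-/- arrays, against 1277 and 1087 on the WT arrays. Tnfrsf4, Tnfrsf9 and Tnfrsf18 were higher in the same genotype as these markers. Between the TACI-/- arrays, both marker sums and Tnfrsf9 were higher on replicate 1, Tnfrsf4 and Tnfrsf18 on replicate 2. The sums weigh the brightest genes most. Of the single markers, Nr4a3, Irf4, Ikzf2 and Lrrc32 were higher on TACI-/- replicate 2 and the others on replicate 1. Between the WT arrays, both sums and Tnfrsf18 were higher on replicate 1 and Tnfrsf4 on replicate 2, while Tnfrsf9 was nearly equal. Single markers were again higher on either WT array. The order of the 2 replicates of a genotype was not tested. The sort was for CD25 negative, CD44 low cells, and how many regulatory or stimulated T cells it left was not measured here. The part of either marker group in the receptor values was not tested.

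Genes of the B cell list were higher too, in 3 of 7 tested genes at an unadjusted p under 0.05. At that threshold 4.94% of all genes tested were higher and 3.84% lower. All 7 genes of this list had positive log2 fold changes, with a median of 0.35. The 3 were H2-Aa, H2-Ab1 and Bank1, with log2 fold changes of 0.57, 0.53 and 0.44. H2-Aa and H2-Ab1 are MHC class II genes, which other antigen-presenting cells carry too. Cd79a, Cd79b, Pax5 and Cd22 had 0.29, 0.35, 0.28 and 0.03, and none of these reached that threshold. Ms4a1, Blk and Ebf1 were below the filter on every array. The 12 measured genes of that list summed to 335.6 and 271.5 on the TACI-/- arrays, against 226.6 and 243.5 on the WT arrays. Cd40, the member most typical of B cells, was close to the filter, where a difference is hard to see, and had a log2 fold change of 0.06. Of the 11 listed myeloid and dendritic cell genes 3 were tested, 1 of which, Lyz2, was lower at -0.49, and the sums were 126.9 and 130.5 on the TACI-/- arrays, against 152.6 and 141.7 on the WT arrays. Their part in the members' values was not tested.

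**Figure D2:**
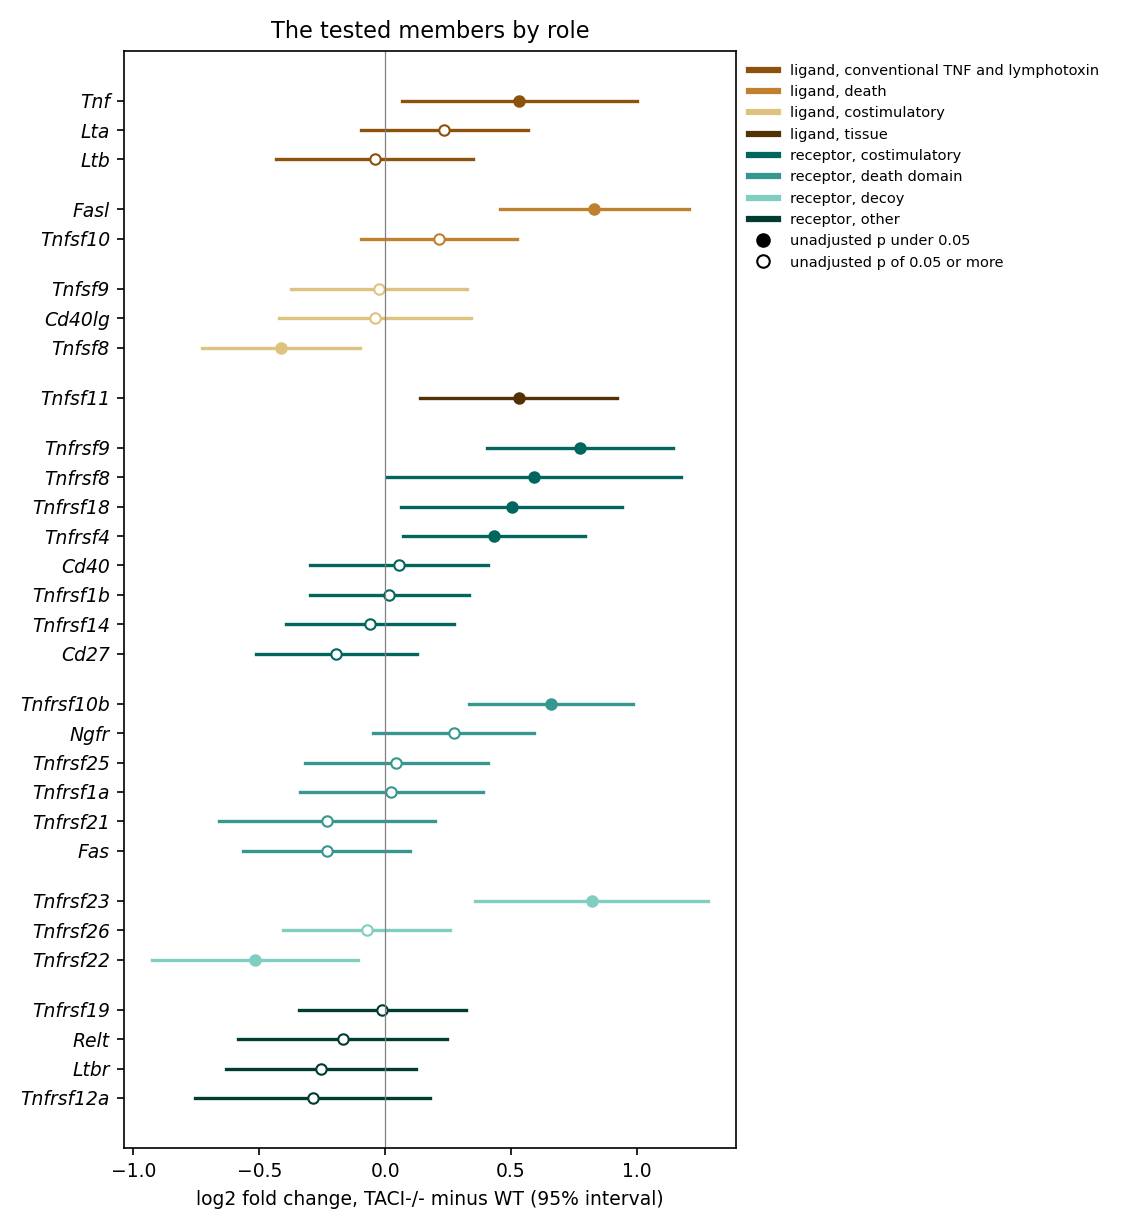
Log2 fold change (TACI-/- minus WT, horizontal axis) with its 95% interval for each of the 30 tested members, grouped and coloured by role, filled where the unadjusted limma p was under 0.05. The filled points to the right of 0 are 9 and those to the left are Tnfsf8 and Tnfrsf22, and the values run from -0.52 to 0.83.

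Of the 6 tested receptors with a death domain, Tnfrsf10b was the only one with an unadjusted p under 0.05. Tnfrsf10b encodes the mouse death receptor for TRAIL, a known target of p53. It measured 5.63 and 5.76 on the TACI-/- arrays, against 4.97 and 5.10 on the WT arrays, 1.58-fold higher (log2 fold change 0.66 ± 0.14, SE, limma adjusted p = 0.256). The gap between the genotypes, 0.53 log2 units, was several times the SDs of 0.10 and 0.09 (n = 2 each). Tnfrsf25, the death receptor of T cells that binds TL1A, measured 5.99 and 6.04 on the TACI-/- arrays, against 5.82 and 6.12 on the WT arrays, and the genotypes overlapped. Ngfr, the neurotrophin receptor, had a log2 fold change of 0.27 and Tnfrsf21 (death receptor 6) had -0.23, both with intervals that include 0.

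Tnfrsf26, Tnfrsf22 and Tnfrsf23 lie next to each other in this order on mouse chromosome 7, and Tnfrsf22 and Tnfrsf23 encode decoy receptors that bind TRAIL in the mouse without a death domain. The values of these 2 neighbours went in opposite directions. Tnfrsf23 measured 5.26 and 5.02 on the TACI-/- arrays, against 4.56 and 4.08 on the WT arrays, 1.77-fold higher (log2 fold change 0.82 ± 0.19, SE, limma adjusted p = 0.304). Tnfrsf22 measured 6.16 and 5.77 on the TACI-/- arrays, against 6.55 and 6.41 on the WT arrays, 1.43-fold lower (log2 fold change -0.52 ± 0.17, SE, limma adjusted p = 0.496). Tnfrsf26 measured 7.42 and 7.22 on the TACI-/- arrays, against 7.43 and 7.35 on the WT arrays, a log2 fold change of -0.07. The 95% intervals of Tnfrsf23 (0.36 to 1.28) and Tnfrsf22 (-0.93 to -0.11) do not overlap, but the difference between the genes was not tested itself. Tnfrsf22 and Tnfrsf23 are closely related copies, and it is not known here whether their probe sets share probes, which makes the value of either gene uncertain.

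The remaining tested receptors, Ltbr, Tnfrsf12a, Tnfrsf19 and Relt, had log2 fold changes from -0.29 to -0.01, and none had an unadjusted p under 0.05. Ltbr, best known from the stroma of lymphoid organs, measured 5.58 and 5.50 on the TACI-/- arrays, against 5.97 and 5.63 on the WT arrays. Tnfrsf12a, the receptor of TWEAK, measured 5.10 and 4.59 on the TACI-/- arrays, against 5.06 and 5.21 on the WT arrays, so that TACI-/- replicate 2 alone was low. Without TACI-/- replicate 1 its unadjusted p was under 0.05.

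By position, the 7 receptor genes of chromosome 4 (Tnfrsf1b, Tnfrsf8, Tnfrsf9, Tnfrsf25, Tnfrsf14, Tnfrsf4 and Tnfrsf18, in this order in GRCm38.p6) held 4 of the 6 receptors with higher values at an unadjusted p under 0.05. Their median log2 fold change was 0.43, and that of the 14 tested receptors elsewhere was -0.12. The ligand gene Tnfsf8, also on chromosome 4, had -0.41, and with it the median of the 8 tested members there was 0.24. The grouping of receptors by chromosome was made with the values known and was not tested. Among the 7, immediate neighbours went together in 1 case (Tnfrsf4 with Tnfrsf18) and not in the other, where Tnfrsf1b had 0.02 beside 0.59 for Tnfrsf8.

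The log2 fold changes of ligands and their receptors can be set side by side. Fasl had 0.83 and Fas -0.23. Tnf had 0.53, with 0.02 for either of its receptors. For Tnfsf9 and Tnfrsf9 the values were -0.02 and 0.77, and for Tnfsf8 and Tnfrsf8 they were -0.41 and 0.59, so in these 2 pairs the receptor had the positive value. Tnfsf10 and Tnfrsf10b had 0.21 and 0.66, and Cd40lg and Cd40 had -0.04 and 0.06. Differences between the members of a pair were not tested.

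**Figure D3:**
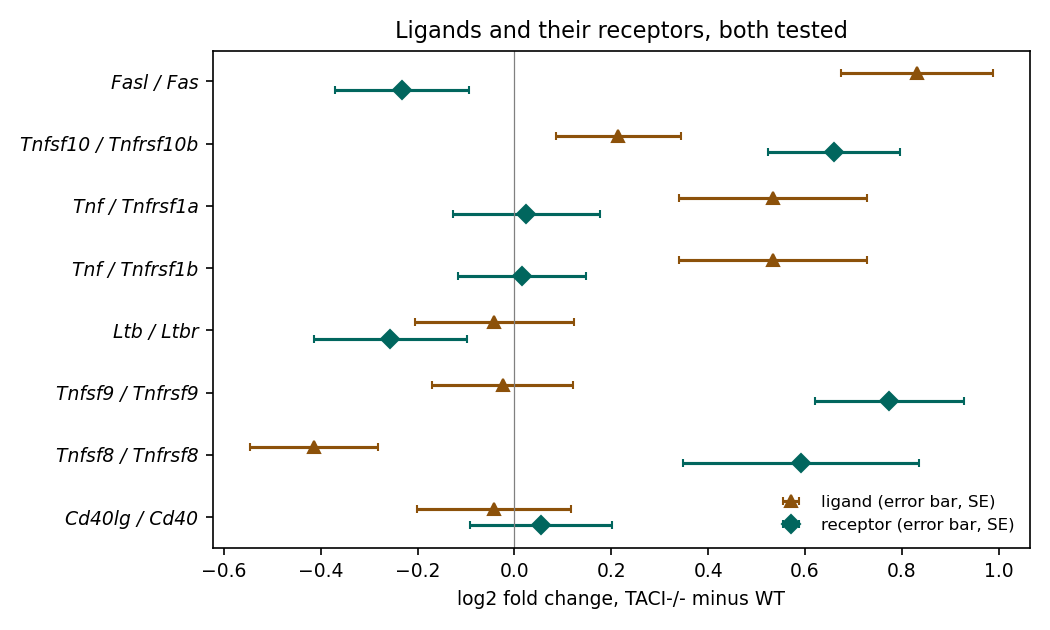
Log2 fold change (TACI-/- minus WT, horizontal axis) of ligand (triangle) and receptor (diamond) for 8 chosen pairs with both genes tested, with SE bars. Other tested pairs, such as Tnfsf10 with Tnfrsf22 or Tnfrsf23, are not drawn. Fasl lies right of Fas, Tnf right of both of its receptors, and Tnfrsf9 and Tnfrsf8 lie right of their ligands.

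Counting separation of arrays in place of p, the TACI-/- arrays were both above the WT arrays for 12 of 30 members, where 20.5% of all genes tested were, and both below for 5, where 18.1% were. The 17 members in all are 56.7% of 30, beside 38.7% of all genes. Besides the 11 above, these were Ngfr, Lta and Tnfsf10 (higher) and Fas, Ltbr and Cd27 (lower). Without TACI-/- replicate 1 the count was 26, but 70.5% of all genes then did not overlap.

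Genes that act behind the receptors were read from the same fit, in which 4.94% of all genes tested were higher and 3.84% lower at an unadjusted p under 0.05. Of 17 tested adaptors and kinases, the TRAF and IKK genes among them, none had an unadjusted p under 0.05 in limma, and their log2 fold changes lay between -0.12 and 0.13. Traf6 and Map3k14, the kinase of the noncanonical NF-kB pathway, had 0.13 and 0.12. Of 11 ubiquitin editors 3 were higher at an unadjusted p under 0.05, and 1, Tnfaip3 (A20, which ends TNF receptor signals), rose past the adjusted threshold. Tnfaip3 measured 9.38 and 9.23 on the TACI-/- arrays, against 7.91 and 7.69 on the WT arrays. Tnip1, a partner of A20, had 0.48 and Otulin, which cuts linear ubiquitin chains, 0.32. Of 9 tested NF-kB subunits and inhibitors 3 were higher at that threshold, Nfkbid (0.95), Nfkbiz (0.55) and Rel (0.41), and none passed after adjustment. Nfkbid and Nfkbiz encode nuclear inhibitor-like proteins. Of 6 tested cell death genes, Bid, which links death receptors to mitochondria, was lower (-0.45) and the others did not reach an unadjusted p of 0.05. The median of the 6 was -0.25. Cflar, which holds back caspase-8, and Casp8 had -0.24 and -0.11. The 3 shedding genes had values from -0.06 to 0.34, with Adam17, the protease that releases TNF, at 0.34. Over all 46 tested genes of these lists 6 were higher and 1 lower at an unadjusted p under 0.05, and their median was 0.05.

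**Figure D4:**
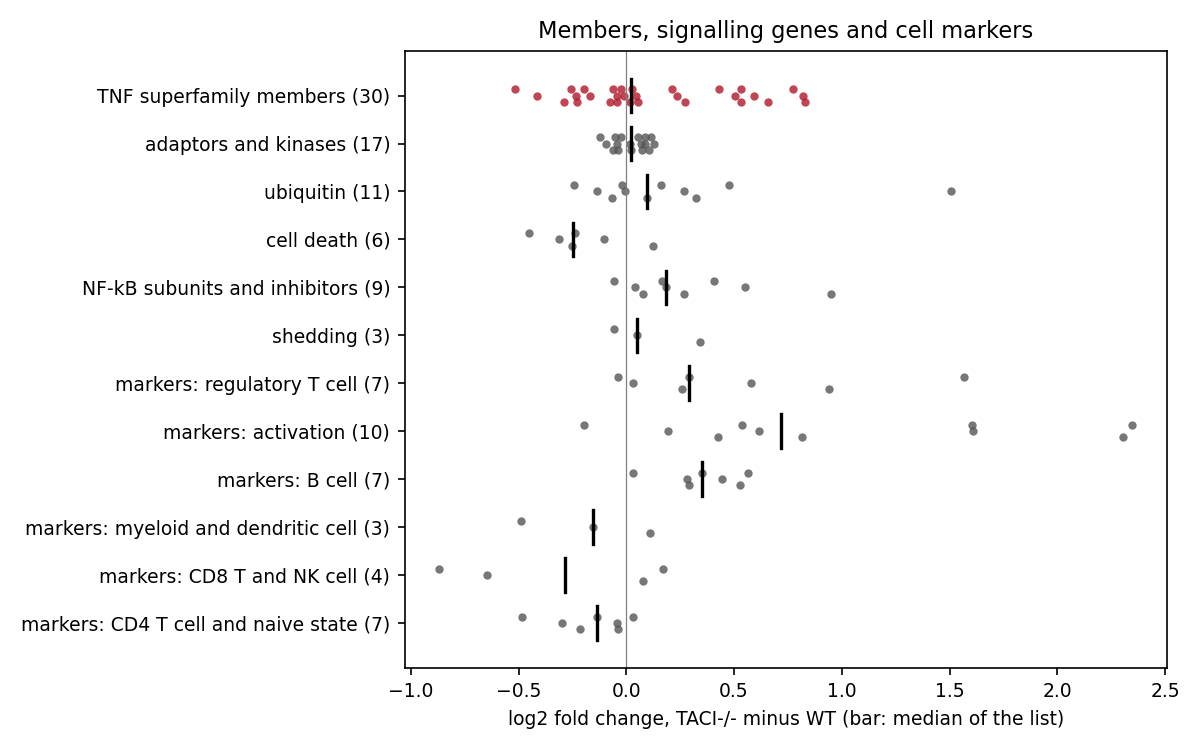
Log2 fold change (TACI-/- minus WT, horizontal axis) of every tested gene of each list, 1 point a gene, with a black bar at the median of the list and the number tested in parentheses. The 30 members spread from -0.52 to 0.83 around a median of 0.02, the 17 adaptors and kinases lie between -0.12 and 0.13, and the 10 activation markers have a median of 0.72.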

How the data were processed

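Naive CD4+ T cells were profiled on 4 arrays, 2 of TACI-/- and 2 of WT, grouped by the genotype in the titles. The deposited table holds 1 log2 value per probe set and array. The submitters' processing notes name RMA and Partek, without versions or roles, and that the log2 base is 2 was taken from RMA and the range of the values. RMA normally includes quantile normalization, but which steps were run is not recorded. The deposited values of 41345 probe sets were used with no further normalization. Of these, 23521 had 1 gene symbol in the platform annotation, 1814 several and 16010 none, and only the first were used. Where a gene had several probe sets, the brightest by its mean over the 4 arrays stood for it. Tnfsf12 is not analysed here. The comparison was a limma fit (version 3.58.1, R 4.3.3; lmFit and eBayes, two-sided, with genotype alone in the model) over the 13782 genes that passed the filter, with Benjamini-Hochberg adjustment over all of them. Errors are moderated standard errors (SE) or SDs with n = 2. The median SE was 0.15. The fit was tested on simulated data, in 10 runs with 200 changed genes each, and 4.65% of the calls were false. Where the simulated difference was 1.5-fold, only 4.6% of the changed genes were recovered. Recovery rose to 52.8% at 2-fold, and it was 94.4% at 3-fold. The largest difference of a tested member was 1.78-fold (Fasl), so differences of the members' size could often be missed. The members and the gene lists were chosen with earlier results of these data known. Members with the value on every array were those with an unadjusted p under 0.05, a list of genes with a role in T cells, and the tested partners of the first set; other named genes (Cd40, Ngfr, Tnfrsf21, Ltbr, Tnfrsf12a, pairs, positions and single list genes) were chosen after their values were seen. RefSeq tables (GRCm38.p6) gave chromosomes, gene order and promoter sequence. The array table names no build. The 14 alternatives were other filters, normalizations, variance models, the mean over probe sets, the replicate number as a block, and leaving out each array.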

Additional observations from a re-analysis of the deposited data

How the results depend on the processing

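The count of members past an adjusted p of 0.05 was 0 in limma with each of the 14 alternatives, and 11 members had an unadjusted p under 0.05 in the fit as reported. No gene at all passed with no variance moderation or without any 1 array, so the 0 says nothing there. In the other 9 alternatives 3 to 46 genes passed, and 19 in the fit as reported. With so few of all genes passing, a 0 among the members says little in these settings too. The members higher at an unadjusted p under 0.05 numbered 4, and those lower 1, with no variance moderation, a setting that leaves 2 arrays per genotype to estimate each gene's spread. Leaving out 1 array gave 6 to 7 members higher, 0 to 3 lower, a median log2 fold change from -0.03 to 0.09, and 22 to 26 members without overlap, where 65.1% to 71.9% of all genes did not overlap, since fewer arrays are compared. With the replicate number as a block 10 members had an unadjusted p under 0.05, 8 higher and 2 lower, where 8.21% of all genes did, Tnfrsf8 being the one lost. Same-numbered arrays share only a number (the correlation of their deviations was -0.03 over the 13782 genes), so no block was used. The 11 members kept their sign in all alternatives that tested them, as they must where an array is left out, since their arrays do not overlap. Sign changed for members near 0. With a further quantile normalization Ltb had 0.00545 and Tnfrsf1b -0.00756. With 1 array left out, the log2 fold change ran for Cd40lg from -0.19 to 0.108, Ltb from -0.186 to 0.103, Tnfrsf14 from -0.164 to 0.0433, Tnfrsf1a from -0.0853 to 0.135, Tnfrsf1b from -0.0532 to 0.086, Tnfrsf25 from -0.108 to 0.197, Tnfrsf26 from -0.169 to 0.0225 and Tnfsf9 from -0.126 to 0.0773. Cut at the 60th percentile, 2 of the 11 members, Tnfrsf8 and Tnfsf11, were no longer tested. With no filter Tnfrsf11a, below the filter on 3 of 4 arrays, came under an unadjusted p of 0.05 as lower.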
